A study of Saccharomyces cerevisiae with 30 samples.

Results

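The Ty retrotransposon reading frames comprised 60 of the 7127 features of the TPM table, taken by their systematic names: the Gag and Gag-Pol frames of Ty1, Ty2 and Ty3 elements. All 60 were in the table. By the R64 annotation they were 22 Gag and 24 Gag-Pol frames of Ty1, 5 Gag and 5 Gag-Pol frames of Ty2, and 4 frames of Ty3. The annotation used here held 59 of them, all but YIL082W, and YLR035C-A lay in no annotated element and was counted with Ty1 because 94.1% of its 25-base words occurred in YER160C, against 9.67% in the nearest Ty2 frame. RNA was sequenced from 1 culture of a BF264-15D MATa bar1 yeast strain grown in YEP dextrose at 38.5°C, arrested in G1 with the mating pheromone alpha-factor (40 ng/ml for 150 min in the labels) and sampled at 30 time points from 0 to 290 min after release, every 10 min, with 1 library each. There was no untreated culture and no replicate, so neighbouring time points share the culture and no value has a replicate error or a test. Every comparison is a description.

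Ty elements are retrotransposons, which copy themselves through RNA. Their RNA starts and ends in a long terminal repeat (LTR) and is read as Gag, the shell protein of the virus-like particle, or, when ribosomes slip by 1 base near the end of the Gag frame, as the longer Gag-Pol protein that holds protease, integrase and reverse transcriptase. Ty1 and Ty2 are close relatives of the copia type, and Ty3 is of the gypsy type. In haploid yeast, Ty3 transcription is known to be induced by mating pheromone, and Ty1 transcription is known to need the transcription factors Ste12 and Tec1.

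The starts of the LTRs are shown because in these elements they hold TGAAAC, the core of the pheromone response element, which the capitals mark. The sequences are from the RefSeq copy of R64, read 5′ to 3′ along the element. Motifs were searched in the LTR alone, and sites in the rest of the element, also within the reading frames, were not searched.
YGRWTy3-1 (chrVII:707195-707344, plus strand): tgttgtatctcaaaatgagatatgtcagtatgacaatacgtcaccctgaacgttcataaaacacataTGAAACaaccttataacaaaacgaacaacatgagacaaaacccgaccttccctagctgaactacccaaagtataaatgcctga
YDRWTy1-5 (chrIV:1206704-1206853, plus strand): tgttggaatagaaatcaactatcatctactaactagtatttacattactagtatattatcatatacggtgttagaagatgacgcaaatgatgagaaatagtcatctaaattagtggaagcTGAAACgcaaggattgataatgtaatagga
YERCTy1-2 (chrV:498272-498421, minus strand): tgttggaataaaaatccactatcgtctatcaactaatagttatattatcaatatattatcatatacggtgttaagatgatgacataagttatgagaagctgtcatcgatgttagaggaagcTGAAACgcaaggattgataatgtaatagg
YCLWTy2-1 (chrIII:84811-84960, plus strand): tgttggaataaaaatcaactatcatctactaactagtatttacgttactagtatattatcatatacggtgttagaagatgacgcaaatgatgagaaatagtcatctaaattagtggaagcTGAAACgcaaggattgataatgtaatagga
The second Ty3 element, YILWTy3-1, had the same 150 bases as YGRWTy3-1. YDRCTy1-1, which holds YDR098C-B, had the same 150 bases as YCLWTy2-1 and differed from YDRWTy1-5 at 2 of 150 bases. YERCTy1-2 differed from YDRWTy1-5 at 71 of 150 without gaps. Of the 30 elements that held members, 29 had an LTR annotated at their start, and TGAAAC, searched on both strands of the whole LTR, was found in all 22 Ty1, 5 Ty2 and 2 Ty3 LTRs. The same letters occurred in 20.8% of the 340-base windows before 5931 genes that are no Ty frame. The longer TGAAACA, which overlaps it, occurred in both Ty3 LTRs, in 7 of 22 Ty1 LTRs and in 0 of 5 Ty2 LTRs, against 8.01% of the gene windows. The other form, TGAAACG, occurred in 15 Ty1, 5 Ty2 and 0 Ty3 LTRs, against 4.11%. The letters CATTCC, the core of the Tec1 site, occurred in 16 Ty1, 1 Ty2 and 2 Ty3 LTRs, against 11% of gene windows, and CATTCT in 0 Ty1, 2 Ty2 and 0 Ty3 LTRs, against 20%.

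The frameshift stretches are shown because they join the Gag and Gag-Pol frames of 1 element, so that the Gag frame lies inside the Gag-Pol frame and both draw on the same RNA. The capitals mark the 7 bases at which the ribosome is known to slip.
YDR365W-B of Ty1 (chrIV:1208287-1208317, plus strand): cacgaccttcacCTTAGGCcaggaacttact
YCL019W of Ty2 (chrIII:86377-86407, plus strand): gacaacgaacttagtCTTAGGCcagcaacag
YGR109W-B of Ty3 (chrVII:708445-708475, plus strand): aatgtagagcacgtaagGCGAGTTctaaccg
The heptamer CTTAGGC was found in the 31 bases around the annotated junction in 22 of 22 Ty1 and 5 of 5 Ty2 frames with a junction, and GCGAGTT in 2 of 2 Ty3 frames.

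Copies of 1 family are nearly alike, and RSEM divides reads that match several of them by estimate. Frames less than 200 bases apart in length were aligned. The 211 Ty1 Gag-Pol pairs, from 23 of 24 frames, shared 91.7% to 99.9% of their bases, with a median of 96.6%, the 10 Ty2 pairs 98.4% to 99.7%, and the Ty3 pair 92.8%. YDR261C-D had no frame of like length, and the shorter YAR009C and YLR035C-A were aligned with each other alone. Of all 75-base windows of a frame, the share found nowhere else in the genome had a median of 1.44% over Ty1 Gag-Pol frames, where 5 of 24 frames had none, and of 0% over Ty1 Gag frames, where 15 of 22 had none. It was 47.6% in YGR109W-B and 48.4% in YIL082W-A. A window of a Gag frame that lies inside a Gag-Pol frame is part of that frame too, so this share does not set such frames apart. The level of a single Ty1 or Ty2 copy is therefore uncertain. R64 is also a reference genome, and whether the BF264-15D strain holds each element at its place there was not tested. How far the family sums depend on the division was not tested. The sums leave out 40 other features taken as Ty frames, by a list of names or by annotated product, with a mean sum of 356 TPM. The listed names were not checked against the annotated product, and YGR161W-C among them averaged 103 TPM.

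The libraries at 0, 10, 20, 100, 140 and 150 min are set apart here. A STRIPE is the paper's name for a time point at which the whole transcriptome shifts against its temporal neighbours. The paper marks 140 and 150 min so. It adds 100 min in a figure caption and in its table of calls, by eye and by its detector function, and 110 min in its text. The 110 min library was not set apart here and lies in the cycle window described below. The paper's detector function also called 0, 10 and 20 min as STRIPEs in the raw data. The paper suspected that these could be biological, through the release, and left them out of its correction by interpolation. Its quantile normalization was run on all time points, and the detector function called no time point of this series afterwards. Over 6128 other features present at every time point, median-of-ratios factors ran from 0.748 at 10 min to 1.16 at 150 min. TPM divided by the factor are called scaled TPM below, and most differences and counts that rest on these libraries are given on both scales, while levels are TPM unless said to be scaled. An entry of 0 TPM is written as listed at 0, because MFA1 and MFA2, which encode the a-factor pheromone of MATa cells, were themselves listed at 0 at 28 and 5 of 30 time points. The other a-cell markers were present (STE2, the alpha-factor receptor, at 164 to 343 TPM, STE6 at 35.7 to 72.7 TPM and AGA2 at 306 to 1515 TPM), the 4 alpha-cell markers had medians of 2.30 to 17.3 TPM, and BAR1, the gene of the alpha-factor protease that is marked as mutant in the strain label, was listed at 0 throughout.

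The 2 Ty3 Gag-Pol frames were the most abundant members, and their TPM were highest at 0 min, at the end of the pheromone arrest. YGR109W-B (chrVII:707610-712254) was at 465 TPM at 0 min, 215 at 10, 250 at 20, 266 at 30, 205 at 40 and 221 at 50 min. The next 5 time points (60-100 min) had 179, 149, 151, 137 and 166 TPM, followed by 105, 111, 103, 145 and 153 TPM (110-150 min) and 102, 107, 124, 119 and 106 TPM (160-200 min). The remaining values (210-290 min) were 98.6, 107.5, 98.6, 99.5, 84.0, 80.0, 78.7, 73.1 and 68.8 TPM. The last of these was its lowest value. YIL082W-A (chrIX:205635-210132) had 772, 346, 425, 477, 365 and 400 TPM (0-50 min), then 327, 275, 284, 266 and 333 TPM (60-100 min), 205, 221, 197, 259 and 271 TPM (110-150 min), and 198, 215, 268, 247 and 234 TPM (160-200 min). The remaining values (210-290 min) were 223, 199, 218, 216, 180, 171, 176, 146 and 147 TPM. Both frames dropped at the first step, stayed below their first value at every later time point and were lowest at 280 or 290 min. The ratio of YIL082W-A to YGR109W-B was 1.96 ± 0.185 (SD over 30 time points), between 1.60 at 10 min and 2.27 at 210 min, and their log2(TPM + 1) correlated with r = 0.99 over the 30 time points, which share their libraries.

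The summed Ty3 TPM was 1237, 561 and 215 at 0, 10 and 290 min, a 5.74-fold range with its highest value at the first and its lowest at the last time point. On the scaled TPM the sum went from 1592 at 0 min to 750 at 10, 731 at 20, 689 at 30, 541 at 40 and 539 at 50 min, and to 221 at 290 min. On unscaled TPM its coefficient of variation (CV) was 48.5%, and 33.2% without 0, 10 and 20 min. Over all 30 time points the CV of the scaled sum was 60.45%. From 0 to 10 min the log2 difference was −1.14, and −1.09 on scaled TPM, where the median of the 6369 features averaging 1 TPM or more was −0.07 and −0.02. This step lies between 2 of the set-apart libraries and cannot be given without them. Between 30-50 min and 250-290 min, windows that hold none of those libraries, the sum went from a mean of 645 to 241 TPM, a log2 difference of −1.42 against a spread within windows of 0.157 (pooled SD of log2 levels), and −1.21 on scaled TPM. The 2 windows did not overlap, but neither did those of the Ty1 Gag-Pol sum, whose difference was −0.35, or −0.14 scaled. The windows compared in every family were release (30-50 against 0-20 min), cycle (110-130 against 60-80 min), stripe (140 and 150 against 130 and 160 min) and late (250-290 against 160-200 min). The first step and the 30-50 against 250-290 min comparison were added after the data were seen.
For Ty3 the release difference was −0.35 against a spread of 0.443, or −0.80 on scaled TPM, and it was 0.06 without the library of 0 min, so its sign rests on that library. The cycle difference was −0.54 (spread 0.111), from 455 to 314 TPM, −0.40 scaled, and −0.53 without 110 min. The late difference was −0.51 (spread 0.142), from 344 to 241 TPM, and −0.43 scaled. The stripe difference was 0.46 (spread 0.0349), and 0.21 scaled, where the median of all features was 0.25 unscaled.

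**Figure D1:**
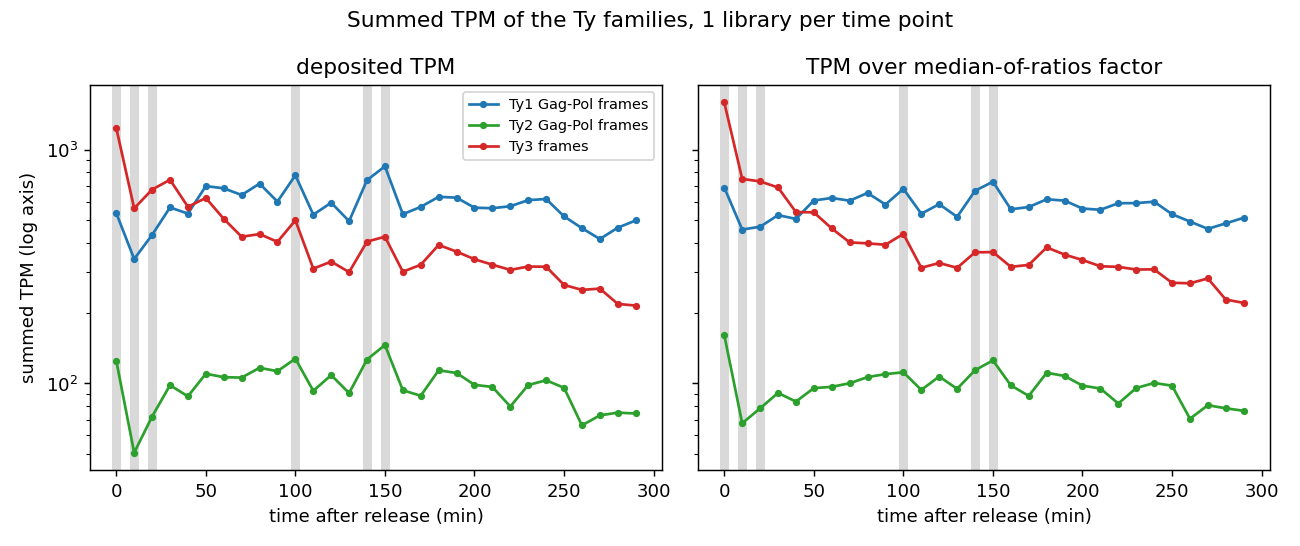
Summed TPM (log axis) of the Ty1 Gag-Pol, Ty2 Gag-Pol and Ty3 frames against time after release in min, as deposited on the left and divided by the median-of-ratios factor on the right, 1 library per point. Grey bars mark 0, 10, 20, 100, 140 and 150 min. The Ty3 sum runs from 1237 TPM at 0 min to 215 TPM at 290 min, while the Ty1 sum is lowest at 10 min, at 341 TPM.

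The Gag-Pol frames of Ty1, the most numerous Ty family, followed another course. Their sum was at 535 TPM at 0 min and lowest at 10 min, at 341 TPM, then at 432, 566, 533 and 698 TPM from 20 to 50 min. It was highest at 150 min, at 849 TPM, with 777 TPM at 100 and 741 at 140 min, and had 415 to 518 TPM at 250 to 290 min. On scaled TPM the sum was also lowest at 10 min, at 455, and highest at 150 min, at 729. Its scaled value at 0 min, 689, was above those at 100 and 140 min, 680 and 667, so 0 min was below both only on unscaled TPM. The CV was 19.1%, and 12.3% on scaled TPM. The release difference of 0.46 (spread 0.272) was 0.02 on scaled TPM, where the median of all features moved by 0.38 unscaled. The 0 to 10 min difference was −0.65, and −0.60 scaled. The cycle difference was −0.34 and the late difference −0.31 (spread 0.11 and 0.114), or −0.20 and −0.23 scaled. The stripe difference was 0.63, or 0.38 scaled. Over the 30 time points the log2 sums of all Ty1 and all Ty3 frames correlated with r = 0.10, and 0.08 on scaled TPM.

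YDR365W-B (chrIV:1206997-1212265) had the highest mean of the Ty1 frames, 97.2 TPM, with a lowest value of 58.2 TPM at 10 min, a median of 94.6 and a highest of 144 TPM at 150 min. YBL005W-B had a mean of 85.5 TPM, from 43.3 at 10 min to 129 at 150 min, and YJR029W a mean of 62.2 TPM, from 43.3 at 10 min to 84.4 at 150 min. On unscaled TPM all 3 were lowest and highest at the same times as the family sum. The libraries at 10 and 150 min also had the lowest and highest factors, 0.748 and 1.16. On scaled TPM the match of both times did not hold for YJR029W or YDR365W-B. Leaving the frame itself out, YDR365W-B correlated with the rest of its family with r = 0.98.

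YDR098C-B and YER160C, of the Ty1 Gag-Pol frames, correlated more with the Ty3 sum than with the rest of their own family. YDR098C-B (chrIV:645858-651126) had the largest CV among Ty1 Gag-Pol frames with a mean of at least 1 TPM, 57.2%, with 28.5 TPM at 0 min, 8.61 at 10, 13 at 20, 12.8 at 30 and 2.85 at 270 min. It correlated with the Ty3 sum with r = 0.92, also 0.92 on scaled TPM, and with the rest of the Ty1 Gag-Pol frames with r = 0.37. Between 30-50 and 250-290 min it went from 12.1 to 3.57 TPM, a log2 difference of −1.52. YER160C (chrV:492856-498124), with a CV of 45.4%, had 17.01, 4.82, 8.43 and 2.15 TPM at 0, 10, 50 and 260 min, with r = 0.84 to Ty3 and 0.43 to its own family. YLR035C-A, in no annotated element (chrXII:215440-218907), was highest at 0 min as well but nearer to its own family, with r = 0.64 to Ty3 and 0.78 to the other Ty1 Gag-Pol frames, and 45.4, 25.4 and 25.2 TPM at 0, 10 and 280 min. These 3 frames were singled out after their values were seen. YER160C has no 75-base window of its own and YDR098C-B has 1.44%, so how RSEM divided shared reads was not tested as a part of these courses. YER138C, with no window of its own, was at 7.29 TPM at 0 min, 3.23 at 220 min and at most 0.40 elsewhere, and YDR316W-B was listed at 0 throughout.

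The sum of the Ty2 Gag-Pol frames was also lowest at 10 min, as were 3 of the 5 frames. It was at 125 TPM at 0 min, 50.6 at 10, 72.2 at 20, 98.3 at 30 and 146 at 150 min, and at 66.2 to 95.9 TPM from 250 to 290 min. The 0 to 10 min difference was −1.29, and −1.24 on scaled TPM, the largest fold of the 3 Gag-Pol sums. At 50 min the sum was 110 TPM. On scaled TPM it was highest at 0 min, at 161, with 67.6 at 10 and 95.5 at 50 min, so the level at 50 min was near the first only on unscaled TPM. The release difference was 0.26 (spread 0.473), or −0.18 scaled, the cycle difference −0.17 (spread 0.112), or −0.04 scaled, the late difference −0.39 (spread 0.176), or −0.31 scaled, and the stripe difference 0.56 (spread 0.104), or 0.31 scaled. YCL019W (chrIII:85102-90415) was at 51.4 TPM at 0 min, 22.2 at 10, 50.8 at 50 and 64.3 at 150 min. YFL002W-A was at 29.5, 11.4 and 23.1 TPM at 0, 10 and 50 min, with its lowest value of 7.95 TPM at 170 min. YDR034C-D was at 18.4, 6.57 and 12.1 TPM at 0, 10 and 50 min, and YDR261W-B, with the largest CV of the 5, 28.2%, at 21.6, 7.41 and 14.7 TPM, and was lowest at 270 min, at 6.56 TPM.

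The Gag frames lie inside these Gag-Pol frames, and most were listed at 0. Among 29 elements with both frames, the Gag frame was listed at 0 at every time point in 20, of which 16 had a Gag-Pol frame with a mean of at least 1 TPM. These held the Ty3 Gag frames, YGR109W-A (chrVII:707610-708482) and YIL082W, beside Gag-Pol means of 146 and 275 TPM. In all, 21 members were listed at 0 throughout, and 34 at 1 or more time points. The 18 Ty1 Gag frames listed at 0 throughout were YBR012W-A, YDR098C-A, YDR210C-C, YDR261C-C, YDR316W-A, YDR365W-A, YER137C-A, YER159C-A, YGR027W-A, YGR038C-A, YGR161C-C, YHR214C-C, YJR026W, YLR157C-A, YLR227W-A, YML040W, YMR051C and YNL284C-A. Only YARCTy1-1 had a higher mean for Gag than for Gag-Pol, 28.7 TPM for YAR010C against 27.4 TPM for YAR009C, whose frame is truncated and does not contain YAR010C. In 6 elements the Gag frame averaged 1 TPM or more, and the median correlation of the log2(TPM + 1) of the Gag and Gag-Pol frames was r = 0.25.

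YAR010C and YAR009C moved apart from each other. YAR010C (chrI:164544-165866) was listed at 0 at 10 min and had 14.2, 11.1, 17.1, 10.2 and 11.8 TPM at 100, 140, 150, 220 and 280 min. Between these it reached 53.4, 61.1 and 43.6 TPM at 90, 190 and 270 min. YAR009C (chrI:160597-164187) was at 43.0, 43.6 and 47.3 TPM at 100, 140 and 150 min, its 3 highest values, at 35.3 TPM at 220 min, and lowest, 11.5 TPM, at 270 min. Their log2(TPM + 1) correlated with r = −0.45, and −0.68 on scaled TPM. In the stripe comparison YAR010C differed by −1.17 and YAR009C by 1.002 on the log2 scale, and by −1.41 and 0.76 on scaled TPM. YAR010C has no 75-base window of its own, and YAR009C has 5.77%. Of the other Ty1 Gag frames, YMR046C had a mean of 2.30 TPM and was listed at 0 at 17 time points, with a highest value of 10.3 TPM at 240 min, and YJR028W had a mean of 0.224 TPM.

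The Ty2 Gag frames were listed at 0 at 0 and 10 min in all 5 members. Their sum was at 3 TPM at 20 min, 22.2 at 30, 17.7 at 40 and 23.4 at 50 min, and 42.0 TPM at its highest, at 200 min. It was 0.940 TPM at 220 min. YDR034C-C (chrIV:518040-519356) was at 1.58 TPM at 20, 12.8 at 30, 5.23 at 40 and 13.7 at 50 min, and again listed at 0 at 220 min. YCL020W was at 1.42, 7.71, 10.95 and 2.74 TPM at these 4 times. YFL002W-B was at 0.44 TPM at 30 min and 6.36 at 50 min. YDR261W-A had the largest CV of the 4 frames averaging 1 TPM or more, 112%, with a highest value of 5.05 TPM at 270 min and 10 time points listed at 0. At 0 min the Gag-Pol sum of the same family was 125 TPM. How the reads shared by nested frames were divided was not tested. Any log2 difference of these frames against 0-20 min is set by the pseudocount and is no measure of a fold.

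**Figure D2:**
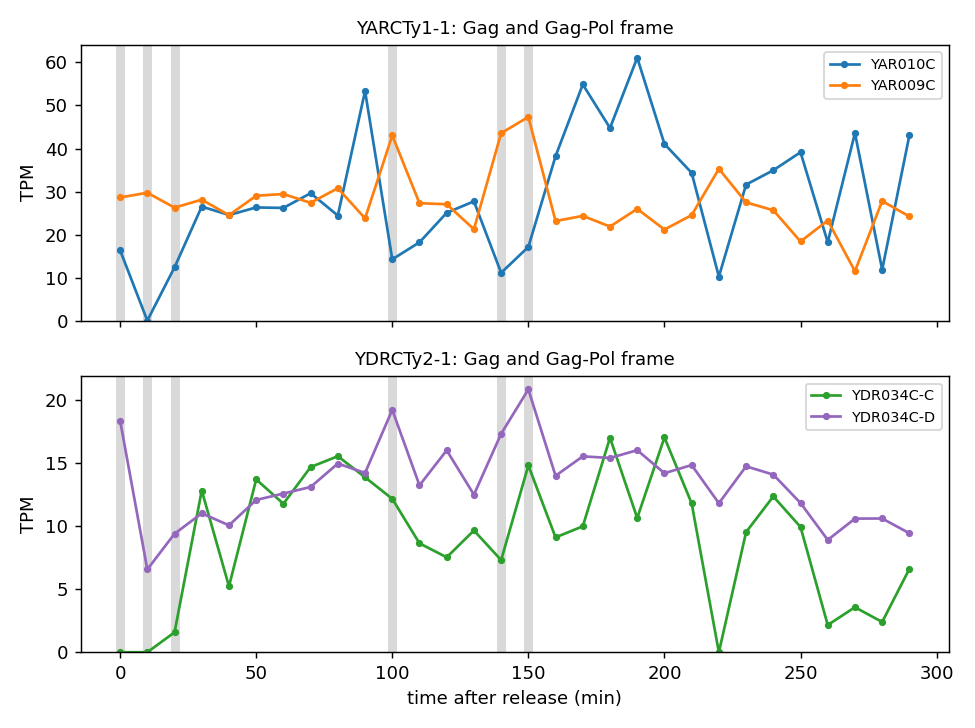
TPM of the Gag and Gag-Pol frame of YARCTy1-1 (top) and YDRCTy2-1 (bottom) against time after release in min, 1 library per point, grey bars at 0, 10, 20, 100, 140 and 150 min. YAR010C is low, at 14.2, 11.1 and 17.1 TPM, where YAR009C is high, at 43.0, 43.6 and 47.3 TPM, and YDR034C-C is listed at 0 at 0, 10 and 220 min.

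Of the 60 members, 32 had a mean of at least 1 TPM. A member was counted as past 2-fold where its log2(mean TPM + 1) differed by at least 1. In release 5 of 32 were, all higher, all Gag frames (YAR010C, YCL020W, YDR034C-C, YDR261W-A and YFL002W-B), against 4.54% of 6369 features in either direction. On scaled TPM 4 were, without YAR010C at 0.98, against 3.22%. YDR261W-A and YFL002W-B were listed at 0 from 0 to 20 min, and YCL020W and YDR034C-C at 0 and 10 min, so their size rests on the pseudocount. With a pseudocount of 10 the count was 0 in release, cycle, stripe and late. In cycle it was 1, YMR046C, lower, against 1.55%, and the same frame on scaled TPM, against 1.52%. In stripe it was 4, YAR009C and YDR261C-D higher and YAR010C and YMR046C lower, against 1.98%. On scaled TPM both higher calls were lost, with 0.76 for YAR009C and 0.93 for YDR261C-D, and 2 remained, both lower, against 1.48%. In late it was 1, YDR034C-C, lower, against 0.487%, and the same frame on scaled TPM, against 0.471%. Over the first step 10 of 32 members were at least 2-fold lower, against 3.27%: both Ty3 Gag-Pol frames, 4 of 5 Ty2 Gag-Pol frames, YDR098C-B, YER160C and YMR045C of the Ty1 Gag-Pol frames, and YAR010C. On scaled TPM it was 9, without YMR045C at −0.97, against 3.08%. With a pseudocount of 10 it was 4. Between 30-50 and 250-290 min 3 of 32 were at least 2-fold lower, both Ty3 Gag-Pol frames and YDR098C-B, against 1%, and 1 was higher, YMR046C, by 1.24, against 0.926%. The same 4 frames were past 2-fold on scaled TPM, against 0.597% lower and 1.27% higher. The median log2 difference over the 32 members was 0.51 in release, −0.36 in cycle, 0.54 in stripe, −0.33 in late, −0.56 from 0 to 10 min and −0.31 between 30-50 and 250-290 min. Over all 6369 features it was 0.38, −0.13, 0.25, −0.07, −0.07 and −0.20. On scaled TPM the members' medians were 0.11, −0.23, 0.30, −0.26, −0.52 and −0.11, where those of all features were between −0.02 and 0.01. The 40 other features taken as Ty frames, which are no members, had a sum of 206 TPM at its lowest, also at 10 min. It was 448 TPM at its highest, at 80 min, with a 0 to 10 min difference of −0.57.

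Several single members jumped from one time point to the next. At least 1 of the 29 steps was 2-fold or more in 18 of 32 members, against 15.3% of all features, and the median number of such steps was 1 per member and 0 over all features. The Gag frames had the most, with 19 steps in YCL020W, 13 in YAR010C and in YMR046C, 11 in YDR261W-A, 9 in YFL002W-B and 8 in YDR034C-C. The Ty3 Gag-Pol frames had 1 each, the first. Of the 19 Ty1 Gag-Pol frames, 6 had any, at most 3. The median CV was 23.4% over the Ty1 Gag-Pol frames and 19.1% for their sum, 23.9% and 21.1% for Ty2 Gag-Pol, 50.1% and 48.5% for Ty3, and 76.0% and 56.5% for Ty2 Gag. Over all 6369 features the median CV was 15.7%.

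**Figure D3:**
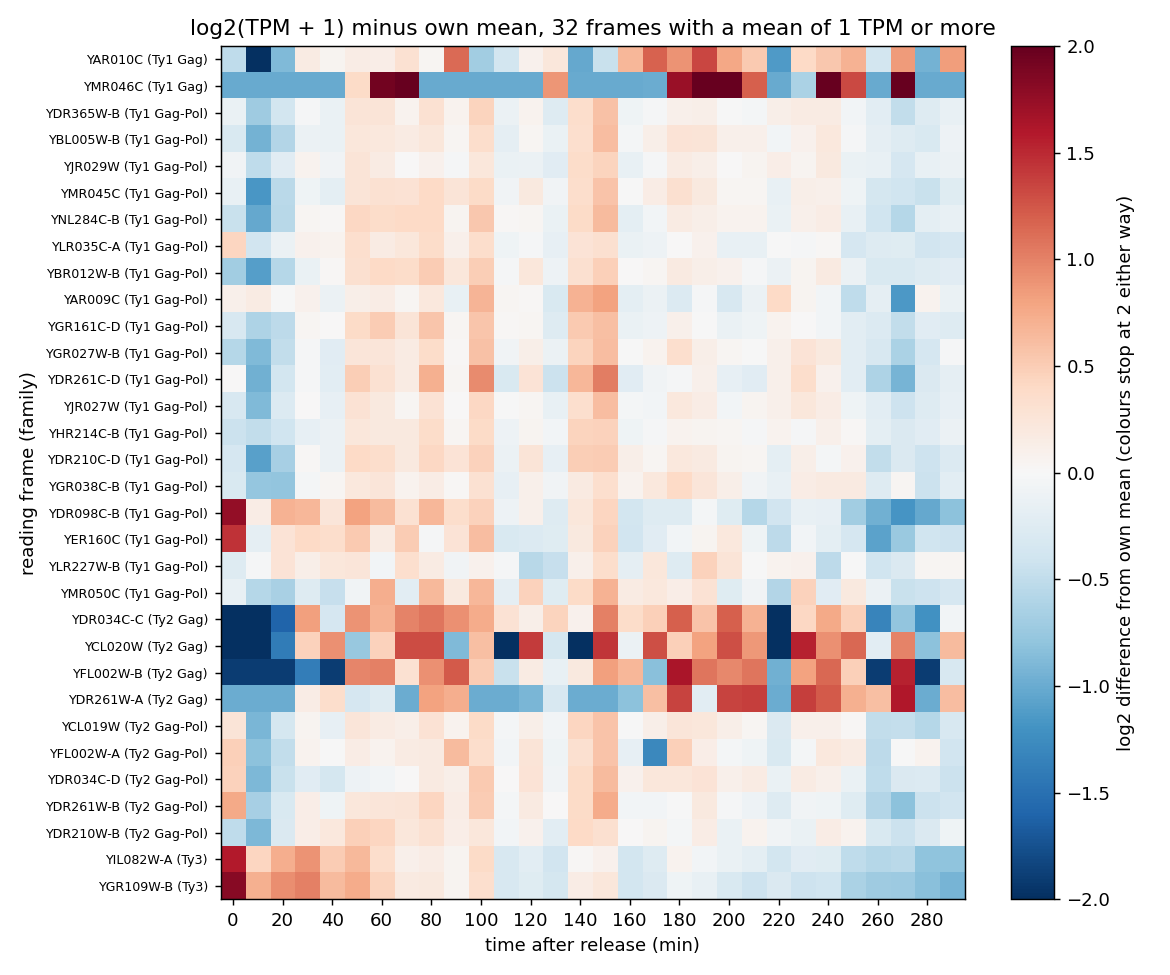
Heatmap of the 32 members with a mean of at least 1 TPM (rows, by family) at the 30 time points (columns, time after release in min), coloured by log2(TPM + 1) minus the frame's own mean over time. The Ty3 frames and YDR098C-B and YER160C are red at 0 min and blue late, most Ty1 and Ty2 Gag-Pol frames are blue at 10 min and red at 140 and 150 min, and the Gag frames change from one time point to the next.

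Genes induced by mating pheromone were set beside the Ty3 frames. Of the 15 on the list, 2 were past 2-fold in release, both lower, with a list median of −0.08. Of all 6369 features 4.54% were, in either direction. On scaled TPM 5 of the 15 were, all lower, against 3.22% of all features, with a list median of −0.50. FIG1, a membrane protein of mating cells, was at 171 TPM at 0 min, 34.7 at 10, 19.9 at 30 and 7.71 at 290 min, a release difference of −1.75, or −2.23 scaled. FIG2, a cell wall protein of mating cells, was at 559, 70.8, 82.2 and 40.1 TPM at these times, a release difference of −1.58, or −2.05 scaled. From 0 to 10 min 5 of the 15 were at least 2-fold lower, against 3.27% of all features, with a list median of −0.68. On scaled TPM the same 5 were, against 3.08%, with a list median of −0.63. These also held AGA1, the anchor of a-agglutinin, at 657 and 270 TPM, PRM1, a membrane protein of cell fusion, at 191 and 76.0 TPM, and PRM6 at 16.4 and 6.97 TPM. FUS1, a marker of the pheromone response, was not among them, with 41.9 TPM at 0 and 49.4 TPM at 10 min. On unscaled TPM, FIG1, FIG2, AGA1, PRM1, PRM2, PRM6 and FUS3 were highest at 0 min. The rest of the list was highest later on unscaled TPM: FUS1, FUS2, KAR4, SST2 and GPA1 at 100 min, STE12 at 90, FAR1 at 80 and MSG5 at 50 min. On scaled TPM FUS2, KAR4 and MSG5 were highest at 0 min as well, and FUS1, STE12 and GPA1 at 10 min. From 30-50 to 250-290 min FIG1 and PRM6 were at least 2-fold lower, by −1.50 and −1.09, where the list median was −0.32. Of all features 1% were. On scaled TPM only FIG1 was, by −1.31, against 0.597% of all features. AGA1 was at 625 TPM at 100 min, near its first value, but at 846 and 546 scaled TPM at 0 and 100 min. The Ty3 sum was at 499 TPM, or 436 scaled, at 100 min.

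**Figure D4:**
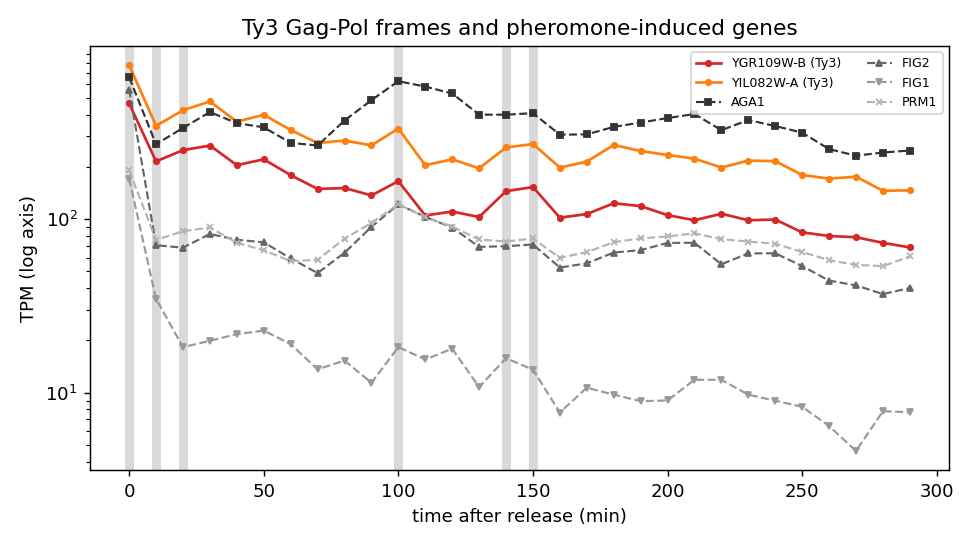
TPM (log axis) of the Ty3 Gag-Pol frames YGR109W-B and YIL082W-A and of AGA1, FIG2, FIG1 and PRM1 against time after release in min, 1 library per point, with grey bars at 0, 10, 20, 100, 140 and 150 min. All 6 are highest at 0 min, and at 100 min AGA1 is at 625 TPM and YGR109W-B at 166 TPM. The genes drawn are a part of the pheromone-induced list, and others on it, such as FUS1, are highest later. On scaled TPM, not drawn, AGA1 is at 846 at 0 and 546 at 100 min.

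Of the 9 transcription factors known to act on Ty promoters, none was past 2-fold in release, cycle, stripe, late, from 0 to 10 min or between 30-50 and 250-290 min. STE12 was at 33.6 to 56.1 TPM and TEC1 at 40.8 to 67.0 TPM over the 30 time points, and GCN4, the activator of amino acid synthesis genes, at 710 to 1131 TPM, highest at 0 min. Of the 17 genes of chromatin factors and SPT genes, whose mutants are known to alter Ty transcription, only SPT21 passed 2-fold, at 4.65 TPM at 0 and 10.9 TPM at 10 min. None of the 17 host factor genes, among them DBR1, which debranches RNA lariats, and XRN1, a 5′ to 3′ exonuclease, passed it in any of these comparisons, while on scaled TPM RTT107 did, higher by 1.06 from 0 to 10 min. Of 9 cell cycle landmark genes, the mitotic cyclin CLB2 and the kinase CDC5 were past 2-fold in release, higher by 1.72 and 1.62, or 1.34 and 1.24 scaled, and CLB2 (lower) and CTS1, a chitinase of cell separation (higher), in cycle, of which CTS1 alone on scaled TPM. Of the 2 landmarks higher from 0 to 10 min, the G1 cyclin CLN2 was at 23.04 and 72.8 TPM and RNR1, a subunit of ribonucleotide reductase, at 55.1 and 204 TPM. EGT2 and CTS1, genes of cell separation, were higher by 1.92 and 1.82 between 30-50 and 250-290 min. Of the 5 a-cell markers AGA2 was past 2-fold in release, by −1.24, or −1.71 scaled, MFA2 over the first step, where its first value was listed at 0, and MFA1 in cycle and stripe, through its 2 values above 0. None of the 4 alpha-cell markers passed 2-fold in these comparisons, and RME1, 1 of 4 haploid-cell markers, was higher by 1.34 between 30-50 and 250-290 min. Of all 6369 features, 4.54% were past 2-fold in release, 1.55% in cycle, 1.98% in stripe and 0.487% in late, in either direction on unscaled TPM. At least 2-fold higher were 3.11% from 0 to 10 min and 0.926% between 30-50 and 250-290 min.

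Features whose course was nearest to a family sum were ranked by Pearson r of log2(TPM + 1) over the 30 time points among 5105 features that are no Ty frame and average 10 TPM or more. Nearest to the Ty3 sum were PPT1, a protein phosphatase, with r = 0.96 (81.0 TPM at 0 min, 56.5 at 10 and 30.3 at 290 min), ADH6 with 0.96, BOP3 with 0.95, VID28 with 0.94 and YHR020W with 0.93. BOP3 was at 96.4, 58.9 and 21.3 TPM and VID28 at 151.7, 69.1 and 38.4 TPM at 0, 10 and 290 min. On scaled TPM, PPT1, BOP3 and VID28 ranked 1, 2 and 3, with r = 0.95, 0.95 and 0.94, while ADH6 fell to rank 20, with 0.88, and YHR020W to rank 51, with 0.83. Nearest to the sum of all Ty1 frames were ALY2, an arrestin-related protein, with r = 0.96, RTS1, a subunit of protein phosphatase 2A, with 0.95, CDC25 and SBE2 with 0.93, and RPB2, a subunit of RNA polymerase II, with 0.93. RTS1 was at 24.2, 17.1 and 33.4 TPM at 0, 10 and 50 min. Nearest to the sum of all Ty2 frames were SSD1, an RNA-binding protein, with r = 0.94, ALY2 with 0.90, SIP5 with 0.88, RTS1 with 0.86 and PLB1, a phospholipase, with 0.86. ALY2 and RTS1 were on both lists. On scaled TPM r was 0.76 to 0.87 for the Ty1 list, at ranks 1 to 11. For the Ty2 list SSD1, ALY2 and RTS1 ranked 1, 2 and 3, with 0.87, 0.79 and 0.78, while SIP5 fell to rank 15, with 0.70, and PLB1 to rank 81, with 0.59.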

How the data were processed

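Total RNA of 1 culture at 30 time points was sequenced from stranded mRNA libraries. The authors aligned the reads with STAR and quantified them with RSEM on R64, and deposited TPM values, which are scaled for length and depth and so keep no read depth. Versions and read length are not given in the sources used here. The deposited table of corrected scores was not used, and 0 columns of the TPM table were left out.

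Members were matched by systematic name and placed in families by the R64 annotation of RefSeq. Members, gene lists and comparisons were chosen with earlier results of these data known. Family sums and single members were compared between windows as differences of log2(mean TPM + 1), with a pseudocount of 1, and only features averaging 1 TPM or more were counted. Scaled TPM are TPM divided by a median-of-ratios factor from 6128 features, with no Ty frame among them. Named members are the 3 highest means, the 2 largest CVs and all listed at 0 in each family, all Ty3 frames, the 5 features nearest each sum and, from each gene list, at most 5 genes past 2-fold in release. Others are named where a count turns on them. Sequences were searched in the R64 genome, with identity counted on aligned bases. The window and factor calculations were tested on simulated data. Other scalings, pseudocounts, filters and left-out time points were tried. Python 3.11.15, numpy 2.4.6, pandas 2.3.3, Biopython and matplotlib 3.10.9 were used.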

Additional observations from a re-analysis of the deposited data

How the results depend on the processing

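With 1 library per time point, no pairing and no test could be run under any alternative. Over 370 values of 91 results under an alternative, 41 moved and 0 differences past 2-fold changed sign. A difference moved if it changed by at least the spread between time points of its windows, a count or CV if by more than 1.5 times. For the first step, with 1 time point on each side, the spread was the SD of the log2 steps between neighbouring time points. For the correlation of Gag and Gag-Pol frames it was the SD of r over 6 elements. The first step and the 30-50 against 250-290 min comparison, the CV alternatives, the count of members with a step and the scaling of the gene lists were added after the data were seen.

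With median-of-ratios factors the Ty1 Gag-Pol differences were 0.022 in release, −0.20 in cycle, 0.38 in stripe and −0.14 between 30-50 and 250-290 min, with a CV of 12.3%. Those of Ty2 Gag-Pol were −0.036 in cycle, 0.31 in stripe and −0.16 between 30-50 and 250-290 min, and those of Ty3 −0.40 in cycle, 0.21 in stripe and −1.21 between 30-50 and 250-290 min. With the same factors 2 members were past 2-fold in stripe and the median number of steps was 0.5. Of the gene lists, 5 pheromone-induced genes were then past 2-fold in release and 1 between 30-50 and 250-290 min, 1 host factor from 0 to 10 min and 1 cell cycle landmark in cycle. With a pseudocount of 10 the Ty1 Gag stripe difference was −0.88 and the Ty2 Gag release difference 1.4999, and the counts past 2-fold were 0 in release, cycle, stripe and late, 0 higher between 30-50 and 250-290 min and 4 from 0 to 10 min, with 7 members with a step and a median of 0 steps. With a pseudocount of 0.1 the count was 3 in cycle and 5 lower between 30-50 and 250-290 min. With a mean of at least 10 TPM it was 1 in release, 0 in cycle, 0 in late and 0 higher between 30-50 and 250-290 min, with 10 members with a step and a median of 0 steps, and with no filter 2 in late and 2 higher between 30-50 and 250-290 min.

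Of 154 values with 1 time point left out, 4 moved. The Ty2 Gag release values of 3.14 to 4.47 are set by the pseudocount, since the sum was 0, 0 and 3 TPM at 0, 10 and 20 min, and give no range of a measured difference. Leaving out single time points, the Ty2 Gag stripe difference from −0.70 to 0.995, where 150 min gave the lowest value, the Ty2 Gag-Pol stripe difference from 0.45 to 0.66 and the Ty3 stripe difference from 0.43 to 0.50. The Ty3 release difference, under 2-fold, ran from −0.57 to 0.06 and so changed sign, as did the Ty2 Gag stripe difference. The median ratio of member CV to family CV was 1.23, and 1.17 to 1.36 under its alternatives.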
